A study of Mus musculus with 3 samples.

Results

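The antiviral interferon-stimulated genes described here are 39 mouse genes whose products sense foreign RNA, block virus replication or regulate those responses, and which interferons switch on in most cell types. They were chosen by gene symbol, with earlier results of these data known, and all 39 had a row in each of 3 deposited tables, out of 12880 genes with a level in at least 1 table. Gene expression was measured by bulk RNA sequencing in sorted lung macrophages of LysM-GFP mice on the C57BL/6 background, aged 6 to 8 weeks. In these mice the lysozyme M locus drives a green fluorescent reporter in myeloid cells, which marks neutrophils and monocytes as well as macrophages. Lung injury was induced by nebulization of lipopolysaccharide (LPS) at 1 mg/ml in saline. LPS is part of the outer membrane of Gram-negative bacteria and is recognised through TLR4. GFP-positive cells that lacked the neutrophil antigen Ly6g and carried CD64 were sorted at 0, 4 and 24 h, and the column headings also name CD11b. Each time point had 1 library, and neither the number of animals behind it nor any pooling is given in the sources used here. All samples carry the same treatment text, so it is not known whether the 0 h mice had inhaled LPS, and ratios to 0 h take that library as it is.

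Type I interferons bind the receptor pair IFNAR1 and IFNAR2, whose kinases JAK1 and TYK2 phosphorylate transcription factors of the STAT family. These join IRF9 to form the complex ISGF3, which binds the interferon-stimulated response element (ISRE) in promoters of target genes. In macrophages, LPS acting on TLR4 through the adaptor TRIF leads to IRF3 phosphorylation and interferon-beta secretion, and the secreted interferon acts on the same and neighbouring cells. Type II interferon acts mainly through another element, the gamma-activated sequence (GAS).

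The promoters of the members were read from RefSeq, build GRCm38.p6, as windows from 250 bases before to 50 bases after each transcription start. An entry was found for 28 of the 39 members, and with this coverage a share for the whole list is void, so the counts describe those 28 only. The ISRE core was searched as GAAANNGAAA, with TTTCNNTTTC on the other strand, and GAS as TTCNNNGAA, which reads the same on both strands. The ISRE core was found in 13 of the 28 members (46.4%), and in 3.88% of the 9182 measured genes with an entry. GAS was found in 7 of the 28 (25.0%) and in 8.48% of the measured genes with an entry. Of all 32851 promoters of the table, where a gene can have several, 3.44% held the ISRE core and 8.30% GAS. In the members, the motifs overlapped in 1 member promoter, that of Bst2. These are matches of letters and not shown to be bound sites. The windows below show the ISRE matches of 8 members that are described further down, each with 15 bases on either side and the matched bases in capitals, written 5′ to 3′ on the strand of the gene.
Ifit1 (chr19:34640770-34640828, plus strand): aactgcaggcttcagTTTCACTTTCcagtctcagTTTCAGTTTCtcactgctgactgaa
Ifit3 (chr19:34583358-34583431, plus strand): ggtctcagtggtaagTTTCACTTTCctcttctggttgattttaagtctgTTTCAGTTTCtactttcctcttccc
Isg15 (chr4:156200860-156200911, minus strand): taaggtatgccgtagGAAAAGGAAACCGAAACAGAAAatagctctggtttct
Rsad2 (chr12:26456548-26456587, minus strand): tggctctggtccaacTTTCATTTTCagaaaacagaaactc
Oas1a (chr5:120907515-120907560, minus strand): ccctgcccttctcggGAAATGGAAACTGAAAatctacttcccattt
Oas1g (chr5:120887601-120887646, minus strand): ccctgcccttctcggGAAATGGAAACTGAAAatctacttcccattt
Oas3 (chr5:120777710-120777749, minus strand): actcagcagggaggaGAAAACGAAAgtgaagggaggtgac
Bst2 (chr8:71537572-71537617, minus strand): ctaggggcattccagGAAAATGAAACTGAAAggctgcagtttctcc
Ifit1 and Ifit3 each hold a pair of separate matches, starting at positions -104 and -85 in Ifit1 and -156 and -122 in Ifit3, counted from the transcription start. In Isg15 there are 3 overlapping matches at -78, -72 and -66. Oas1a and Oas1g have identical windows, so sequence at this element does not distinguish these neighbouring paralogs. The other members with a match were Ddx58, Eif2ak2, Ifih1, Trim21 and Trim30a. The median ratio of 4 h to 0 h was 6.95 over the 13 members with a match (range 2.17 to 32.5) and 6.32 over the 15 without one (range 0.768 to 20.9), so the ranges overlapped widely.

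Levels below are normalized read counts, that is, whole reads recovered from the deposited values divided by a size factor common to the 3 libraries. A ratio carries its exact 95% counting interval in brackets, which covers counting error only and not the spread between animals. With 1 library per time point no ratio has a replicate check, no p-value is given, and "higher" and "lower" describe these libraries. In order of time the libraries held 24825976, 20379236 and 25135476 reads, of which the members took 0.246%, 0.960% and 0.330%. Their lowest count was 19 reads, for Ifi44 at 0 h, and 38 members had at least 100 reads in every library. Gene coordinates are those of the deposited tables, build mm10. The libraries differed in sex-linked transcripts, with 13705, 4 and 1 reads of Xist and 4, 3994 and 2357 of Ddx3y, so sex and time cannot be told apart for 0 h against the later libraries. In bulk samples, fewer cells of a type and less RNA per cell cannot be told apart.

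The members were higher as a set in the 4 h library and most had come back toward their 0 h level by 24 h. At 4 h, 38 of 39 were at least 2-fold above 0 h and none was 2-fold below, while of all 12512 genes 15.2% passed 2-fold upward and 14.3% downward. The counting interval lay wholly above 2 for 36 members, against 10.6% of all genes, and 26 were at least 4-fold higher, against 4.97%. The median member ratio was 6.95, a log2 ratio of 2.80 with a pseudocount of 1, against 0.00 over all genes. At 24 h, 8 members were at least 2-fold above 0 h and none 2-fold below, against 4.95% and 9.10% of all 12481 genes, and the median member ratio was 1.65. Between 4 h and 24 h, 33 members were at least 2-fold lower and none 2-fold higher, against 17.9% and 14.4% of all 12684 genes. All 39 were lower at 24 h than at 4 h with an interval wholly on that side, against 40.3% of all genes, and the median member held 25.1% of its 4 h level. Scaling by total reads put Bst2 above its 4 h level and left the other 38 below. The comparisons with 0 h and with 24 h share the 4 h library.

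**Figure D1:**
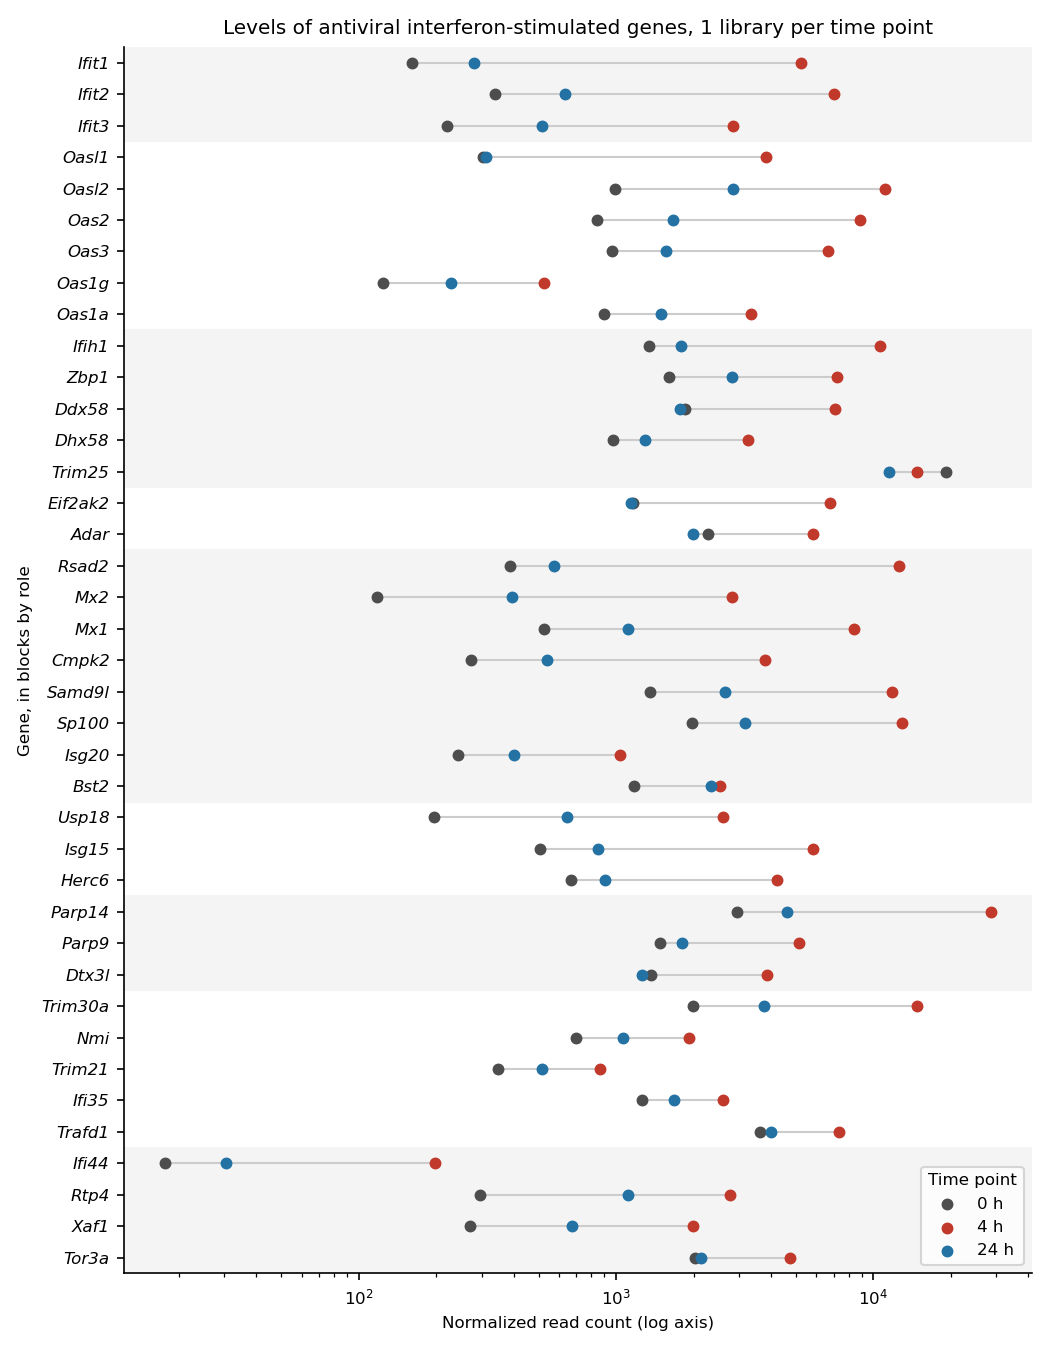
Normalized read count (log axis) of each of the 39 genes in the 0 h (grey), 4 h (red) and 24 h (blue) library, in blocks by role, with 1 point per library and a line from the lowest to the highest. The 4 h point is the highest for 38 genes, and Trim25 is highest at 0 h.

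**Figure D2:**
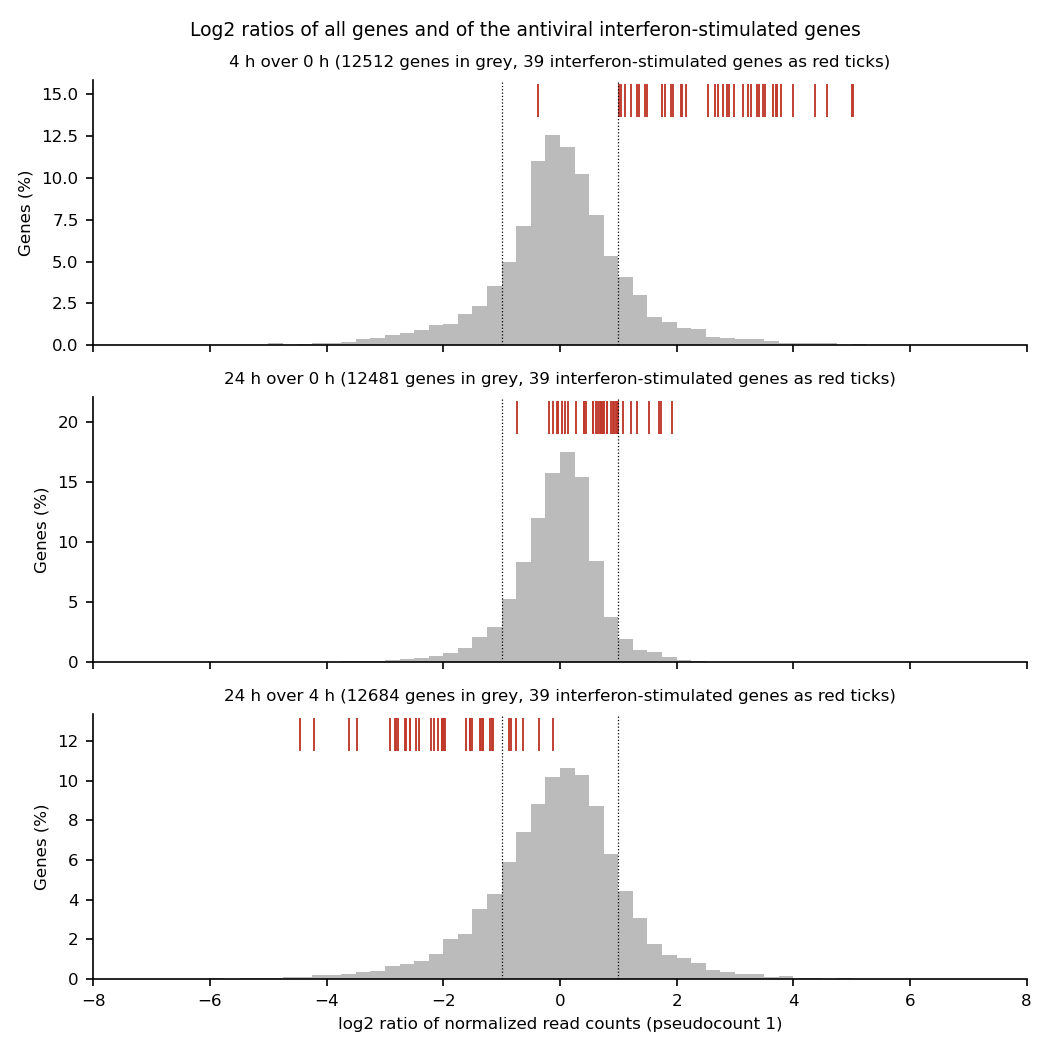
Share of all genes (grey bars, percent) by log2 ratio of normalized read counts, and the 39 interferon-stimulated genes as red ticks, for 4 h over 0 h, 24 h over 0 h and 24 h over 4 h; dotted lines mark 2-fold. The grey distributions centre near 0, and the member medians are 2.80, 0.72 and -1.99.

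The sorted cells differed in cell type markers across the 3 times. All 6 general macrophage markers had reads, with a summed level of 75763, 82776 and 70729 normalized counts at 0, 4 and 24 h. Lyz2, the lysozyme M gene, had 43, 16 and 21 reads in that order. Of 10 classical monocyte markers, 9 were at least 2-fold higher at 4 h and 8 at 24 h, with a summed level of 23774, 352626 and 72518. Of 18 alveolar macrophage markers, 16 were at least 2-fold lower at 4 h and 2 at 24 h, with a summed level of 857444, 306164 and 494722. Most of that sum was Chil3, at 601110, 209378 and 310123. The median ratio of the 18 markers to 0 h was 0.155 at 4 h and 0.646 at 24 h. All 11 neutrophil markers with a value at 0 h and 4 h were at least 2-fold higher at 4 h. The summed level of the neutrophil markers was 5189, 40357 and 8378. Ly6g, Elane and Mpo, also on the neutrophil list, were looked for and had no usable value. Of 4 plasmacytoid dendritic cell markers with a value, 2 were at least 2-fold higher and 2 lower at 4 h, and Siglech had no usable value. Their summed level of 485, 2047 and 726 was mostly that of Tcf4, at 415, 2006 and 686, a factor also made in other cells. The other markers of this list had few reads at 0 h and 4 h: Ccr9 12 and 23, Cox6a2 18 and 4, and Pacsin1 45 and 6. The summed level was 14.9, 176 and 228 for lymphocyte and natural killer markers. Of 10 epithelial markers, 3 were at least 2-fold higher and 2 lower at 4 h, with a summed level of 15148, 15717 and 15274. Among these the club cell gene Scgb1a1 stood at 90.6, 3977 and 105, while the adhesion genes Epcam and Cdh1 were lower at 4 h. Of 8 endothelial markers, 1 was at least 2-fold higher and 1 lower at 4 h, with a summed level of 4179.9, 2174 and 3004. The lower one was Vwf, at 3292, 564 and 1533, which made up most of that sum at 0 h. Of the 8 endothelial markers, 6 were above their 0 h level at 4 h, against 50.1% of all genes. Their median ratio to 0 h was 1.63 at 4 h and 1.53 at 24 h. No listed marker with a value was at 0 in a library it had a value for. At 4 h most monocyte and neutrophil markers were higher, as the members were, and most alveolar markers were lower. The part of these cell types in the members' values was not tested.

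The authors' deposited table gives log2 fold changes that are shrunken toward 0, and with a threshold of 1 on these the counts were smaller. By the authors' deposited table, 34 members were higher and 0 lower at 4 h against 0 h, with 8.86% and 9.02% of all genes past the threshold. For 24 h against 0 h, the authors' deposited table put 4 members higher and 0 lower, with 0.539% and 2.14% of all genes. For 24 h against 4 h, the authors' deposited table put 0 members higher and 28 lower, with 7.26% and 10.2% of all genes.

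The IFIT proteins bind foreign RNA ends and keep such RNA from being translated. All 3 members were at least 2-fold higher at 4 h, with a median ratio of 20.9. Ifit1 (chr19:34640888-34650009, plus strand) had 172, 4108 and 341 reads at 0, 4 and 24 h, which gave levels of 161, 5215 and 280.2 normalized counts and a 4 h ratio of 32.5 (27.9 to 38). Ifit2 stood at 338, 7058 and 635 normalized counts, a 4 h ratio of 20.9 (18.8 to 23.3). Ifit3 (chr19:34583528-34588982, plus strand), with 235, 2251 and 625 reads, stood at 219, 2857 and 514 normalized counts and a 4 h ratio of 13 (11.4 to 15). All 3 genes were low at 0 h, highest at 4 h and between these at 24 h. The 3 genes lie on the plus strand of chromosome 19. At 24 h Ifit1 held 5.37% of its 4 h level, Ifit2 9.0% and Ifit3 18%, and only Ifit3 of these 3 was still at least 2-fold above 0 h, at 2.34 (2.01 to 2.73).

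The OAS enzymes are activated by double-stranded RNA and make short adenylate chains that act as a second messenger against viruses. All 6 listed members were at least 2-fold higher at 4 h, with ratios from 3.74 to 12.6. Oasl1, a family member without synthetase activity that in mouse restrains translation of Irf7 mRNA, had the largest 4 h ratio of the family and the lowest 24 h ratio. Oasl1 (chr5:114923239-114937911, plus strand) had 325, 3013 and 380 reads at 0, 4 and 24 h and levels of 304, 3825 and 312 normalized counts. Its ratio was 12.6 (11.2 to 14.2) at 4 h and 1.03 (0.885 to 1.2) at 24 h. At 24 h the Oasl1 counting interval therefore held 1. Oas2 and Oas3, the larger synthetases, lie 3248 bases apart on chromosome 5. Oas2 stood at 846, 8852 and 1664 normalized counts, a 4 h ratio of 10.5 (9.76 to 11.2). Oas3 stood at 962, 6684 and 1563, a ratio of 6.95 (6.5 to 7.44). Of these neighbours, both were highest at 4 h, and their 4 h intervals did not overlap.

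The small synthetases had the lowest 4 h ratios of the family. Oas1a (chr5:120896256-120907525, minus strand), with 957, 2635 and 1817 reads, stood at 894, 3345 and 1493 normalized counts, a 4 h ratio of 3.74 (3.47 to 4.03). Oas1g, 8642 bases away, stood at 124, 527 and 229, a 4 h ratio of 4.24 (3.48 to 5.2). The 4 h intervals of Oas1a and Oas1g overlapped. They are close copies, and the sources used here do not say how reads shared between copies were assigned, so the split of reads between them is uncertain. The row named Oasl2 had 1061, 8744 and 3464 reads and levels of 991, 11099 and 2846 normalized counts, with ratios of 11.2 (10.5 to 12) at 4 h and 2.87 (2.68 to 3.08) at 24 h. That row carries the description and location of Oas1c, for which RefSeq lists the symbol Oasl2 as a synonym, so which gene was counted is not settled by the tables. A separate row named Oas1c had 202, 160 and 283 reads and did not show the 4 h peak.

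The cytosolic sensors recognise viral RNA, and 4 of 5 genes in this group were at least 2-fold higher at 4 h. Ifih1 encodes MDA5, which detects long double-stranded RNA. Ifih1 (chr2:62595792-62646255, minus strand) had 1442, 8347 and 2176 reads and 1347, 10595 and 1788 normalized counts at 0, 4 and 24 h, a 4 h ratio of 7.87 (7.44 to 8.33). Ddx58 encodes RIG-I, which detects RNA with a triphosphate end. Ddx58 (chr4:40203776-40239825, minus strand) had 1981, 5582 and 2165 reads and 1850.0, 7086 and 1779 normalized counts, with ratios of 3.83 (3.64 to 4.03) at 4 h and 0.962 (0.904 to 1.02) at 24 h. Dhx58, encoding the related helicase LGP2, stood at 973, 3256 and 1299, a 4 h ratio of 3.35 (3.11 to 3.6). All 3 helicase genes peaked at 4 h, and the 24 h interval of Ddx58 held 1. The row named Zbp1, after the sensor of Z-form nucleic acids, stood at 1604, 7189.6 and 2821, a 4 h ratio of 4.48 (4.25 to 4.73), but it carries the description and location of Igf2bp1, for which Zbp1 is a RefSeq synonym.

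Trim25, the ubiquitin ligase that acts with RIG-I, was the exception of the list. Trim25 (chr11:88999402-89020293, plus strand) had 20530, 11607 and 13995 reads and 19172, 14733 and 11500.0 normalized counts at 0, 4 and 24 h. Its level was highest at 0 h and lowest at 24 h. It was 1.3-fold lower at 4 h (1.27 to 1.33) and 1.67-fold lower at 24 h (1.63 to 1.7) than at 0 h. At 0 h Trim25 was also the member with the most reads, and without it the members took 0.163%, 0.903% and 0.274% of the reads of the libraries. Trim25 is among the 15 members whose promoter window did not hold the letters of the ISRE core. The median 4 h ratio of those 15 was 6.32, and a link between the motif and the Trim25 level was not tested.

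Eif2ak2 and Adar encode proteins that act on double-stranded RNA: the kinase PKR, which stops translation, and the editor ADAR1, which converts adenosine to inosine. Both were at least 2-fold higher at 4 h and stood slightly below 0 h at 24 h, Eif2ak2 above it when scaled by total reads. Eif2ak2 (chr17:78852549-78882572, minus strand) had 1250, 5347 and 1388 reads and 1167, 6787 and 1141 normalized counts. Its ratios were 5.81 (5.47 to 6.19) at 4 h and 0.977 (0.905 to 1.06) at 24 h, the latter interval holding 1. Adar (chr3:89715021-89753455, plus strand) had 2435, 4591 and 2427 reads and 2274, 5828 and 1994 normalized counts. Its ratios were 2.56 (2.44 to 2.69) at 4 h and 0.877 (0.829 to 0.928) at 24 h, the latter interval lying below 1.

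Among 8 effectors that act on virus particles, genomes or budding, all were at least 2-fold higher at 4 h, and 3 remained so at 24 h. Rsad2 encodes viperin, a radical enzyme that makes a chain-terminating nucleotide, and had the highest ratio of the whole list. Rsad2 (chr12:26442742-26456452, minus strand) had 415, 9928 and 701 reads and 388, 12602 and 576 normalized counts at 0, 4 and 24 h. Its 4 h ratio was 32.5 (29.5 to 36), which the counting intervals did not separate from that of Ifit1. It was also the member that dropped furthest, to 4.57% of the 4 h level at 24 h, 21.9-fold lower (20.3 to 23.7). Cmpk2 encodes a mitochondrial nucleotide kinase, and its gene lies 12761 bases from Rsad2 on chromosome 12. Cmpk2 stood at 274, 3799 and 541 normalized counts, a 4 h ratio of 13.9 (12.3 to 15.7). The neighbours shared the order of the 3 libraries, but their 4 h ratios differed by more than counting error.

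Mx1 and Mx2 encode dynamin-like GTPases that trap viral nucleocapsids. In the C57BL/6 background the alleles are known to be non-functional, and RefSeq classes both as transcribed pseudogenes, so their reads show transcription and not a working protein. Mx1 stood at 526, 8371 and 1108 normalized counts, a 4 h ratio of 15.9 (14.6 to 17.4). Mx2 (chr16:97536082-97560901, plus strand), with 126, 2221 and 481 reads, stood at 118, 2819 and 395, with ratios of 24 (20 to 28.9) at 4 h and 3.36 (2.76 to 4.12) at 24 h. Both were highest at 4 h and between the other libraries at 24 h. Samd9l, a restriction factor of poxviruses, stood at 1353, 11851 and 2649, Sp100, a component of nuclear bodies, at 1974, 12871 and 3171, and the exonuclease gene Isg20 at 243, 1039.6 and 400.2 normalized counts. Their 4 h ratios were 8.76, 6.52 and 4.28.

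Bst2, encoding tetherin, which holds budding virus at the cell surface, differed from the other effectors in staying near its 4 h level. Bst2 (chr8:71534261-71537437, minus strand) had 1255, 2000 and 2855 reads and 1172, 2539 and 2346 normalized counts at 0, 4 and 24 h. The 4 h and 24 h levels were close, and both were above 0 h. Its ratios were 2.17 (2.02 to 2.33) at 4 h and 2.0 (1.87 to 2.14) at 24 h, and 92.4% of the 4 h level was present at 24 h.

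Isg15 encodes a ubiquitin-like modifier, Herc6 its main mouse ligase, and Usp18 the protease that removes it and also dampens signalling at IFNAR2. All 3 were at least 2-fold higher at 4 h. Isg15 stood at 506, 5824 and 853 normalized counts at 0, 4 and 24 h, a 4 h ratio of 11.5 (10.5 to 12.6). Usp18 (chr6:121245905-121270917, plus strand) had 210, 2049 and 781 reads and 196, 2601 and 642 normalized counts, with ratios of 13.3 (11.5 to 15.4) at 4 h and 3.27 (2.81 to 3.83) at 24 h. Herc6 (chr6:57580991-57665136, plus strand) had 716, 3328 and 1107 reads and 669, 4224 and 909.6 normalized counts, a 4 h ratio of 6.32 (5.83 to 6.86). At 24 h Usp18 was still over 2-fold above 0 h, while Isg15 and Herc6 were at 1.69 (1.52 to 1.87) and 1.36 (1.24 to 1.5).

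Parp14 and Parp9 belong to the ADP-ribosyltransferases, and the ubiquitin ligase encoded by Dtx3l works in a complex with PARP9. All 3 genes lie on chromosome 16 and were at least 2-fold higher at 4 h. Parp14 (chr16:35832877-35871382, minus strand) had 3145, 22497 and 5603 reads and 2937, 28557 and 4604 normalized counts, a 4 h ratio of 9.72 (9.37 to 10.1). Parp9 stood at 1476, 5118 and 1796, a 4 h ratio of 3.47 (3.27 to 3.68). Dtx3l (chr16:35926514-35939027, minus strand) had 1467, 3038 and 1528 reads and 1370.0, 3856 and 1256 normalized counts, with ratios of 2.81 (2.64 to 3.0) at 4 h and 0.917 (0.853 to 0.985) at 24 h. All 3 peaked at 4 h, and Dtx3l was slightly below its 0 h level at 24 h, or above it when scaled by total reads. Parp9 and Dtx3l lie on opposite strands and overlap by 559 bases, and since the sources used here do not give the strand setting of the counting, reads in the overlap cannot be told apart.

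The TRIM proteins and adaptors grouped here regulate the response, and they had the smallest median ratio of the groups. Trim25, described above with the sensors, is not in this group. All 5 were at least 2-fold higher at 4 h, with a median ratio of 2.5, and 1 of the 5, Trim30a, was 2-fold lower at 24 h than at 4 h. Trim30a (chr7:104409025-104465193, minus strand), which restrains TLR signalling, had 2125, 11651 and 4565 reads and 1984, 14789 and 3751 normalized counts, a 4 h ratio of 7.45 (7.12 to 7.81). Trafd1 (chr5:121371724-121385615, minus strand), a feedback inhibitor of innate signalling, had 3886, 5787 and 4877 reads and 3629, 7346 and 4008 normalized counts, a 4 h ratio of 2.02 (1.94 to 2.11). Trim30a thus stood apart from the rest of its group, and Trafd1 sat at the edge of the 2-fold threshold. Trim21, encoding a cytosolic antibody receptor, stood at 347, 869.5 and 516 normalized counts, a 4 h ratio of 2.5 (2.2 to 2.85). Ifi35 and Nmi encode partner proteins. Ifi35 stood at 1261, 2609 and 1673, a ratio of 2.07 (1.93 to 2.22), and Nmi at 696, 1915 and 1067, a ratio of 2.75 (2.52 to 3.01). Of all members, 6 kept over 50% of their 4 h level at 24 h: Trim21, Ifi35, Trafd1 and Nmi from this group, with Bst2 and Trim25.

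The remaining 4 genes were all at least 2-fold higher at 4 h. Ifi44 (chr3:151730922-151749959, minus strand) had the lowest levels of the list, with 19, 156 and 37 reads and 17.7, 198 and 30.4 normalized counts, and so the widest interval around its 4 h ratio of 11.2 (6.91 to 19). Rtp4 (chr16:23609918-23614222, plus strand), encoding a receptor transport protein, had 316, 2186 and 1356 reads and 295, 2775 and 1114 normalized counts, with ratios of 9.4 (8.35 to 10.6) at 4 h and 3.78 (3.34 to 4.28) at 24 h. Rtp4 thus had the highest 24 h ratio of the list. Xaf1 (chr11:72301628-72313733, plus strand), encoding a partner of the apoptosis inhibitor XIAP, had 289, 1561 and 823 reads and 269.9, 1981 and 676 normalized counts, with ratios of 7.34 (6.47 to 8.35) at 4 h and 2.51 (2.19 to 2.88) at 24 h. Tor3a (chr1:156653616-156674339, minus strand), of the torsin ATPase family, had 2164, 3726 and 2603 reads and 2021, 4729.6 and 2139 normalized counts, a 4 h ratio of 2.34 (2.22 to 2.47). All 4 peaked at 4 h, and the 24 h intervals of Ifi44 and Tor3a held 1.

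Order at 24 h differed from order at 4 h. The 5 highest ratios of 24 h to 0 h belonged to Rtp4, Mx2, Usp18, Oasl2 and Xaf1, followed by Ifit3, Mx1 and Bst2 among the 8 at or past 2-fold. Rsad2, first at 4 h, had a 24 h ratio of 1.49 (1.31 to 1.68). Cmpk2, Oas2 and Samd9l lay just under the threshold with 1.98, 1.97 and 1.96. The interval of the 24 h ratio lay above 1 for 31 members, against 35.1% of all genes, and held 1 for 5. It lay below 1 for 3, against 36.4% of all genes: Trim25, Adar and Dtx3l, the last above 1 when scaled by total reads. Centring on ribosomal protein genes put 10 further members below their 0 h level. Where the interval held 1, the gene was Oasl1, Ddx58, Eif2ak2, Ifi44 or Tor3a. The members under 10% of their 4 h level at 24 h were Rsad2, Ifit1, Oasl1 and Ifit2.

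**Figure D3:**
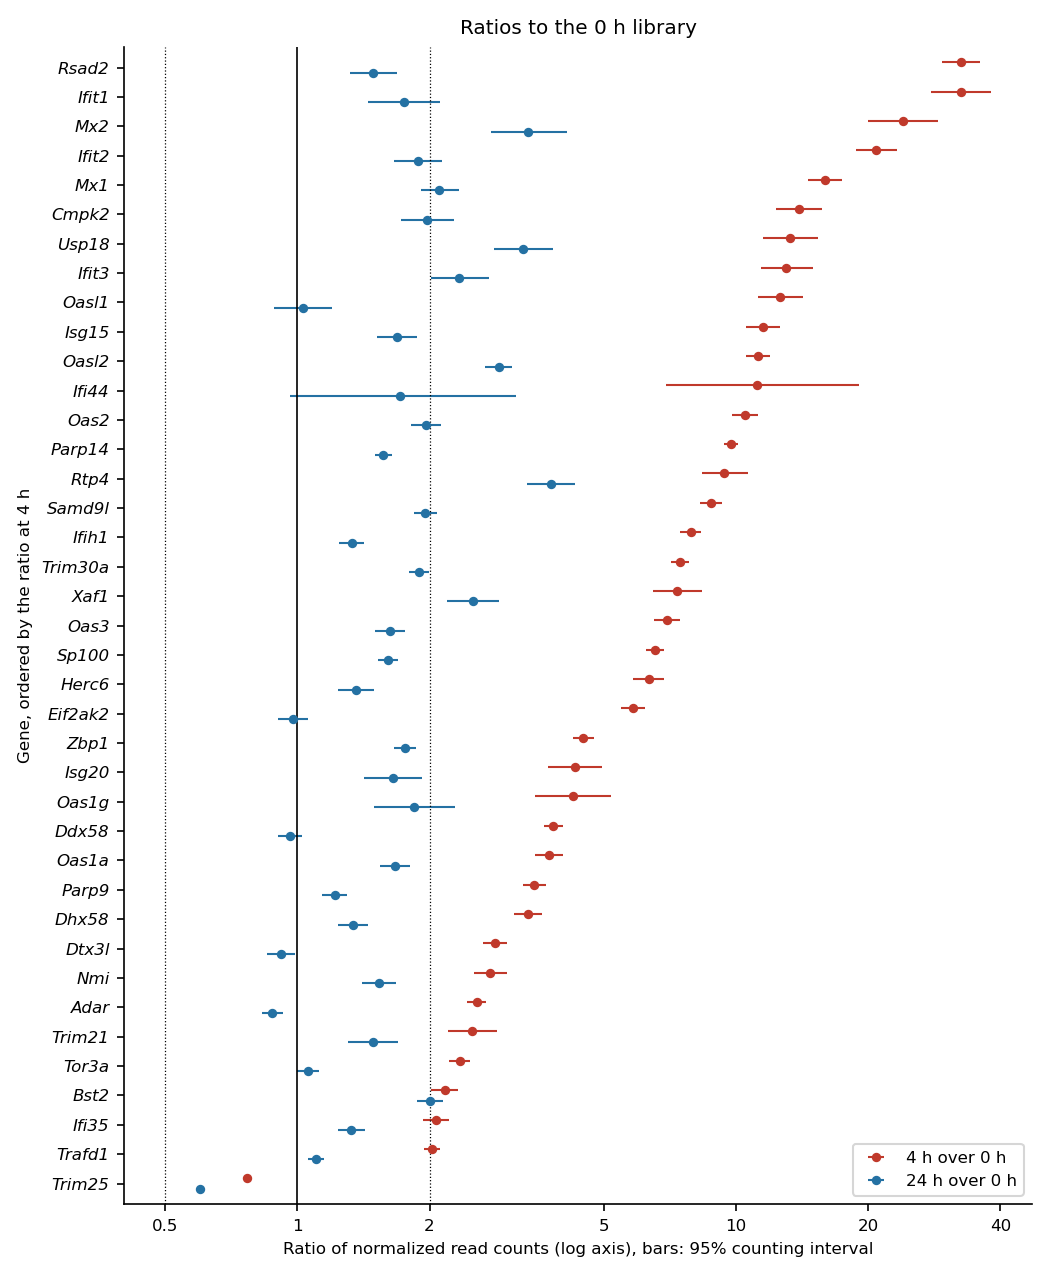
Ratio of normalized read counts to the 0 h library (log axis) for each of the 39 genes, at 4 h (red) and 24 h (blue), ordered by the 4 h ratio; bars are 95% counting intervals and dotted lines mark 2-fold. The 4 h ratios run from 0.768 for Trim25 to 32.5 for Rsad2, and the 24 h ratios from 0.60 for Trim25 to 3.78 for Rtp4.

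The values at 24 h depended on the scaling. Centring on 75 ribosomal protein genes shifted all genes by 0.58 on the log2 scale for 24 h against 0 h, left 3 members at least 2-fold higher and took the median member log2 ratio from 0.72 to 0.14. Scaling by total reads instead gave 14 members at least 2-fold higher and a median log2 ratio of 0.88. The 10 members that moved from above to below their 0 h level under the ribosomal centring included Rsad2, Oasl1 and Ifih1, and under total reads Ddx58, Dtx3l and Eif2ak2 moved from below to above. At 4 h the count of members at least 2-fold higher was 35 by total reads and 38 by ribosomal proteins. A change of scaling shifts all genes alike. The share of all genes past 2-fold under these scalings is not given here, so these counts describe the members alone.

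Levels can be compared between genes only per length, here as normalized counts per kb of annotated exon sequence (GENCODE M21). On that scale Isg15 was the most abundant member at 4 h, with 669.5, 7703 and 1128 per kb at 0, 4 and 24 h. Trim30a followed with 483, 3597 and 912 per kb, and Parp14 with 316, 3069 and 495. At 0 h the order was different. Trim25 was the most abundant with 3332, 2561 and 1999 per kb, followed by Bst2 with 1298, 2811 and 2598. Ifi44 was the least abundant in every library, with 2.89, 32.3 and 4.96 per kb. The median member level per kb was 190.1 at 0 h, 1302 at 4 h and 252 at 24 h. No per-length level is given for Oasl2 and Zbp1.

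The genes that produce and relay the interferon signal were followed in separate lists. Of 9 interferon genes, only Ifnb1, encoding interferon-beta, had values, with 21, 25 and 1 reads at 0, 4 and 24 h. The other 8 were looked for and had no usable value. Its 4 h ratio was 1.62 (0.87 to 3.04), so a difference between 0 h and 4 h was not detectable at this depth. The 1 read at 24 h gave a ratio to 0 h of 0.0419 (0.00101 to 0.261). Of 10 genes for receptors, Janus kinases and ISGF3, 4 were at least 2-fold higher at 4 h and none lower, and none was 2-fold different at 24 h. The kinase gene Jak2 stood at 1689, 9815 and 2236 normalized counts, a 4 h ratio of 5.81 (5.52 to 6.12). Of the genes for ISGF3, Stat2 stood at 2103, 9841 and 2264, a ratio of 4.68 (4.46 to 4.91), and Irf9 at 1531, 4452 and 1968, a ratio of 2.91 (2.74 to 3.09). The receptor gene Ifnar1 stood at 2433, 6078 and 2356, a ratio of 2.5 (2.38 to 2.62).

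Of 15 measured genes for the receptors, adaptors, kinases and factors that induce interferon, 7 were at least 2-fold higher and 1 lower at 4 h, and 1 was higher at 24 h. Irf7, the factor that amplifies interferon production, stood at 2582, 12162 and 5175 normalized counts, with ratios of 4.71 (4.51 to 4.92) at 4 h and 2.0 (1.92 to 2.1) at 24 h. Tlr9, a sensor of unmethylated DNA, stood at 378, 1634 and 301, a 4 h ratio of 4.32 (3.86 to 4.84). Ikbke, a kinase of the interferon factors, stood at 886, 3383 and 729, a 4 h ratio of 3.82 (3.54 to 4.12). Irf7 thus had the highest 24 h ratio of this list. Mavs, the adaptor shared by RIG-I and MDA5, was the gene that was lower, with 2790.3, 831 and 1686 normalized counts, 3.36-fold below 0 h at 4 h (3.08 to 3.66). Of 6 inhibitors of interferon signalling, 2 were at least 2-fold higher at 4 h and none at 24 h. Socs3 stood at 6542, 66058 and 5468, a 4 h ratio of 10.1 (9.85 to 10.4), and Socs1 at 113, 467 and 187, a ratio of 4.13 (3.36 to 5.12).

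Pnpt1, a mitochondrial RNA-degrading enzyme, stood at 1123, 2798 and 1457 normalized counts at 0, 4 and 24 h, a 4 h ratio of 2.49 (2.32 to 2.67). The ISG15-activating enzyme gene Uba7 and the conjugating enzyme gene Ube2l6 fell short of 2-fold, at 1.98 (1.87 to 2.11) and 1.91 (1.76 to 2.07). Of 12 genes listed as leaning toward interferon-gamma, 9 were at least 2-fold higher at 4 h and none lower, with a median ratio of 3.09. Irf1 is also in the list of genes that induce interferon. Whether the list separates the types of interferon was not tested. The GTPase genes led this list. Iigp1 stood at 129, 1095 and 118, a ratio of 8.5 (7.09 to 10.2), and Ifi47 at 989.9, 6497 and 1646, a ratio of 6.56 (6.14 to 7.02). Gbp4 followed with 6.53 (5.46 to 7.85) and Irgm1 with 5.36 (5.06 to 5.68). At 24 h none of the 12 was 2-fold higher and 1 was lower, Cd274, encoding PD-L1, at 2.35-fold below 0 h (2.27 to 2.43). The median 24 h ratio was 1.02 for these genes and 1.65 for the antiviral members.

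**Figure D4:**
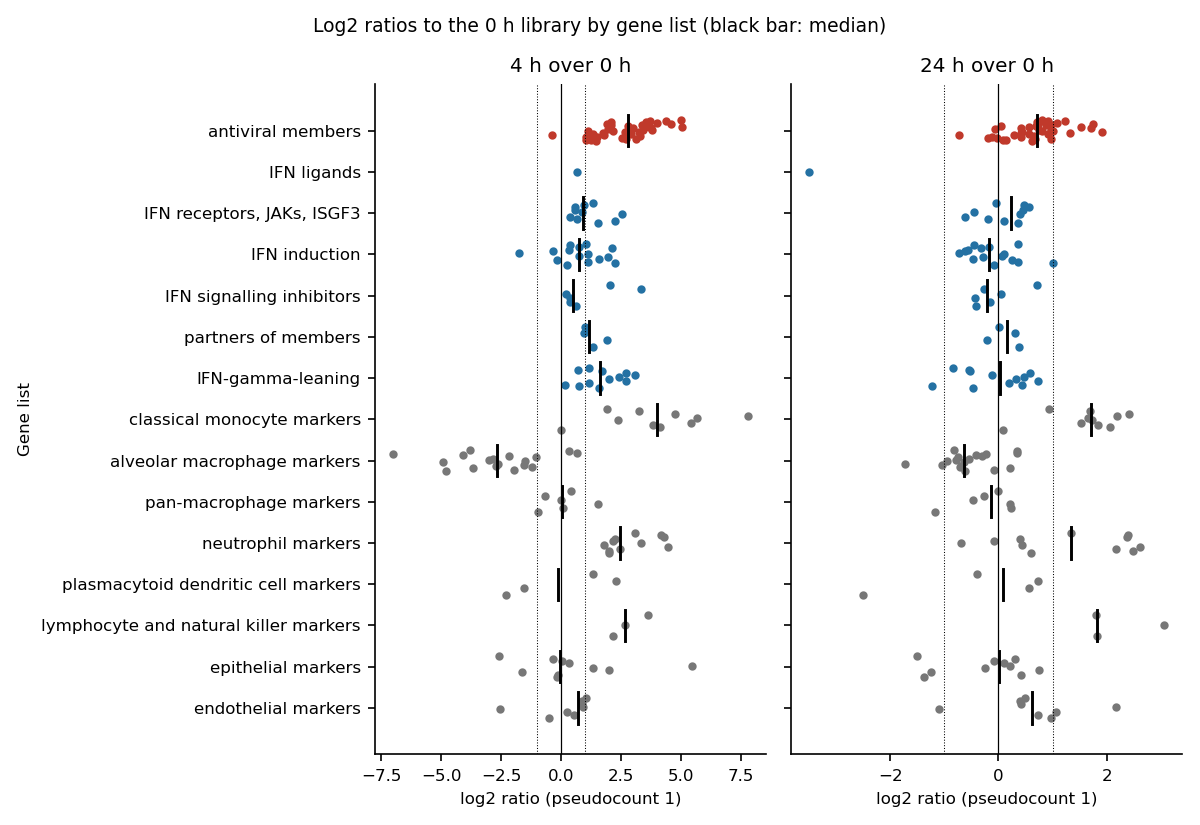
Log2 ratio to the 0 h library (pseudocount 1) of each gene at 4 h (left) and 24 h (right), 1 point per gene and a black bar at the median of each list; red are the 39 antiviral genes, blue the pathway lists and grey the cell type markers, with dotted lines at 2-fold. The antiviral genes have medians of 2.80 and 0.72, and the classical monocyte and alveolar macrophage markers lie on opposite sides of 0 at 4 h.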

How the data were processed

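The data were 3 tables deposited by the authors, each comparing 2 libraries, with 1 library at each labelled time (0, 4 and 24 h). Groups follow the labelled time. Per the submitters' processing notes, DESeq2 was used, with no version, and the build was mm10. Aligner, counter, annotation and strand setting: not given in the sources used here. In the deposited signal columns, reads of a gene stand scaled by a size factor of that table's pair, and every value came out as whole reads within a tolerance of 0.001 reads (100% of values). The deposited log2 fold changes are shrunken toward 0, which lowers their size against the plain ratios.

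In the table of 0 h against 24 h the first of the value columns is headed 4 h. Its reads equal those of 0 h in 12310 of 12310 shared genes and those of 4 h in 0.530%. This 1 column was given to no sample. Reads of 4 h were identical in both tables that hold them for 12375 of 12375 shared genes, and 20 repeated genes were dropped.

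Recovered reads were rescaled with size factors common to the 3 libraries, the median ratio over the 12451 genes read in each (in order of time 1.07, 0.788 and 1.22). Intervals are exact Clopper-Pearson intervals at 95% from the reads of a pair. They cover counting error alone, as PCR copies of a molecule could not be told apart. A gene was counted as higher or lower at 2-fold. Log2 medians used a pseudocount of 1. No count model was fitted, since there were no replicates. Scripts used Python 3.11.15, numpy 2.4.6, pandas 2.3.3 and scipy 1.17.1, and the ratio step was tested on simulated data.

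The members and lists were chosen with earlier results of these data known. Genes given in full are, in each role, those with the highest and lowest 4 h ratio, any member below its 0 h level at 4 h or 24 h, and the 5 with the highest 24 h ratio. From each pathway list, up to 4 genes past 2-fold are named, or the most abundant when none is. Uba7, Ube2l6, Cd274, Oas1c, Lyz2, Chil3, Tcf4, Ccr9, Cox6a2, Pacsin1, Scgb1a1, Epcam, Cdh1, Vwf and the sex-linked genes were named after their values were seen. Some genes that the rule picks are left out here.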

Additional observations from a re-analysis of the deposited data

How the results depend on the processing

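No member changed direction for 4 h against 0 h under any scaling run (total reads, 75 ribosomal protein genes, size factors of the pair alone) or in the authors' deposited log2 values. The 38 members at least 2-fold higher at 4 h became 34 to 38 under those settings and 26 at 4-fold, which 4.97% of all genes passed. The median log2 ratio of 2.80 became 2.64 by total reads and 1.98 in the deposited values. For 24 h against 0 h, the 8 members at least 2-fold higher became 14 by total reads, 3 by ribosomal proteins, 4 by the deposited values, 24 at 1.5-fold (13.7% of all genes) and 0 at 4-fold (0.681%). The 0 at least 2-fold lower became 1 by ribosomal proteins and 1 at 1.5-fold (19.2% of all genes), Trim25 in both cases. The median log2 ratio of 0.72 became 0.88 by total reads, 0.14 by ribosomal proteins and 0.52 in the deposited values. For 24 h against 4 h, the 33 members at least 2-fold lower became 29 by total reads, 37 by ribosomal proteins and 19 at 4-fold (5.79% of all genes), and the median of -1.99 became -1.67 by total reads, -2.46 by ribosomal proteins and -1.43 in the deposited values. The deposited values are shrunken by construction, and a wider or narrower threshold counts other genes by construction, while the cause of the shifts between scalings was not tested. For the other scalings the share of all genes past 2-fold is not given here, so those counts describe the members alone. Leaving out Oasl2 and Zbp1, an alternative chosen after seeing the data, gave 36, 7 and 31 members for the 3 comparisons in the order above. A pseudocount of 10 and a minimum mean of 100 normalized counts left each count and median it applied to within 1.5 times, or 0.1 on the log2 scale, of the value reported. Single ratios moved by less than counting error in 116 cases and by more in 1 with size factors of the pair alone, in 27 and 90 by total reads, in 41 and 76 by ribosomal proteins and in 19 and 98 in the deposited values. With 1 library per time point none could be left out, and the size factors of the pair for 24 h against 0 h were refitted because its 0 h column is headed 4 h. No paired analysis was possible because each time point has 1 library and no test was run. Among the members Ifi44 had the fewest reads, 19 at 0 h, and some marker genes had fewer still.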
